A study of Canis lupus familiaris with 30 samples.

Results

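Granzymes and the genes that accompany them in cytotoxic lymphocytes were followed in enlarged lymph nodes of dogs with lymphoma during chemotherapy. The 8 genes named for this group were GZMK, GZMA, GZMB, PRF1, NKG7, CD226, EOMES and TBX21. Symbols were taken from the study's published differential expression results. A symbol missing there, or listed with several IDs, counts here as having no ID. A gene could be followed only where a symbol could be tied to an Ensembl gene ID of CanFam3.1, which held for 5084 of the 32704 gene IDs. That left 3 members, GZMK (ENSCAFG00000018379), GZMA (ENSCAFG00000006735) and CD226 (ENSCAFG00000000038). GZMB, PRF1, NKG7, EOMES and TBX21 were not analysed here, so every statement on the group rests on these 3 genes.

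The material was RNA of fine needle aspirates from 15 dogs, each aspirated prior to treatment (the initial timepoint) and again 6 weeks into CHOP, a combination of cyclophosphamide, doxorubicin, vincristine and prednisone. The immunophenotype label was B-Cell for 7 dogs, T-Cell for 3 dogs and Unknown for 5 dogs. All dogs were client-owned patients with spontaneous lymphoma, 1 earlier injection of prednisone was permitted at enrolment, and no untreated dog was sampled a second time, so that treatment and elapsed time cannot be told apart. An aspirate holds tumour cells together with the other cells of the node.

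Granzymes are serine proteases that cytotoxic T cells and natural killer cells store in granules and release onto target cells, which they enter with the help of the pore-forming protein perforin. GZMA and GZMK both have trypsin-like specificity and lie close together in mammalian genomes. CD226, also called DNAM-1, is an activating receptor on T cells and natural killer cells that binds PVR and NECTIN2 on target cells. It shares PVR with the receptors TIGIT and CD96. In a lymph node filled by lymphoma, such transcripts can come from bystander lymphocytes or from the tumour cells.

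Levels are FPKM, in which read numbers are divided by the length of the transcript and the depth of the library, so that genes can be compared with each other. Total counts per library ran from 4318394 to 43413353, and the shallowest library was the 6-week aspirate of dog 036. In most dogs the 6-week library was the shallower of the pair. Dogs 025 (20613641 to 6609226), 034 (17141246 to 10658744), 035 (26543591 to 15593702), 036 (12592735 to 4318394) and 038 (21025004 to 10326915), whose granzymes rose most, were among them. So were dogs 030 (16844554 to 6778831) and 037 (43413353 to 19130709), in which GZMK was lower at 6 weeks. The part of depth in the changes was not tested. The deposited counts ranked genes like the FPKM values in 9 dogs and did not in the other 6 dogs (024, 027, 028, 029, 030 and 035), so FPKM was used for all 15 dogs and counts for 9. In the 6 dogs, the FPKM of CD3E and CD22 differed between the T-Cell dog 028 (188 and 3.43 at the initial timepoint) and, for example, the B-Cell dog 027 (3.36 and 75.9). The B-Cell dog 029, also among the 6 dogs, had 178 and 46.1, a CD3E level near that of dog 028.

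The labels were set against CD3D and CD3E, parts of the T cell receptor complex, and against the B cell genes PAX5 and CD22, of which the log2(FPKM + 1) values were averaged into a T cell score and a B cell score. Dogs 028 and 036 carried the T-Cell label and had initial T cell scores of 7.17 and 7.79 with B cell scores of 1.74 and 0.73. Dog 038 carried the same label with a T cell score of 3.23 and a B cell score of 6.09. Dog 029 carried the B-Cell label with a T cell score of 6.62 and a B cell score of 4.89. In dog 038 both scores thus went against its label. In dog 029 the T cell score was the higher one. Its B cell score was still nearer to that of the B-Cell dog 030 (5.35) than to those of dogs 028 and 036. The comparisons of the labels are also given without dogs 029 and 038.

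GZMK was the more abundant granzyme, with an FPKM above that of GZMA in 28 of 30 libraries and a median ratio of 5.83 over the 29 libraries in which GZMA was above 0. At the initial timepoint the FPKM of GZMK was 0 in dog 003, 4.42 in dog 027, 24.8 in dog 029, 25.1 in dog 030, 1.27 in dog 033, 4.11 in dog 034 and 33.8 in dog 037, all B-Cell dogs. In the same dogs at 6 weeks it was 1.45, 7.19, 19.9, 16.1, 0.761, 45.2 and 26.9. Dog 034 stood apart, with a 6-week FPKM that was 11.01-fold the initial one, whereas the 3 B-Cell dogs that began above 10 FPKM were somewhat lower at 6 weeks.

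In the T-Cell dogs the FPKM of GZMK was 3.81 in dog 028, 1.59 in dog 036 and 2.60 in dog 038 at the initial timepoint, and 2.45, 15.98 and 19.6 at 6 weeks. Dogs 036 and 038 were therefore 10.02-fold and 7.52-fold higher at 6 weeks, and dog 028 was lower. In the Unknown dogs GZMK was 1.33 in dog 024, 1.45 in dog 025, 0.671 in dog 026, 14.9 in dog 031_032 and 11.6 in dog 035 at the initial timepoint, and 1.21, 21.5, 1.89, 30.7 and 56.2 at 6 weeks. The value of dog 025 was 14.8-fold higher and that of dog 035 was 4.85-fold higher, while dog 024 was nearly level. An FPKM above 10 was seen in 5 initial libraries and in 9 6-week libraries, and the 5 dogs above 10 initially were also above it at 6 weeks.

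The initial library of dog 003 held 0 counts of GZMK among 24096548 in total, which allows up to 0.124 CPM, counts scaled by the total count of the library (a limit of 3 counts). Its 6-week library held 41 counts, or 1.79 CPM, which as counted was 14.3-fold that limit. Such a limit covers the counting error of the 0 counts only and not that of the 6-week counts. The reads carried no molecular identifiers, so other errors are not covered.

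GZMA was low throughout, between 0 and 9.55 FPKM. At the initial timepoint the B-Cell dogs ran from 0.217 to 5.55 FPKM with a median of 1.46, and at 6 weeks from 0.0484 to 4.48 with a median of 1.48. In the T-Cell dogs GZMA was 0.552 FPKM in dog 028, 0 in dog 036 and 1.71 in dog 038 initially, and 0.209, 1.74 and 8.43 at 6 weeks. The Unknown dogs ran from 0.396 to 5.64 FPKM (median 0.875) initially and from 0.437 to 9.55 (median 3.06) at 6 weeks.

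A log2 change above 1 on the log2(FPKM + 1) scale was found for GZMA in 5 dogs, namely 025 (1.54), 034 (1.61), 035 (1.43), 036 (1.46) and 038 (1.80). Those were also the 5 dogs with the largest change of GZMK, at 3.20, 3.18, 2.18, 2.71 and 2.51. Between the libraries of a dog, deviations from the timepoint mean over all genes correlated with a median of 0.60. In these 5 dogs the correlation was -0.11 (025), 0.23 (034), 0.75 (035), 0.11 (036) and 0.32 (038). Dog 037, with a GZMK change of -0.32, had 0.14. The part of such pair differences in the granzyme changes was not tested. The lowest change of GZMA in any dog was -0.44, and the direction of its change was that of GZMK in 12 of 15 dogs. The counts behind GZMA were few, with a median of 36.5 over the 18 libraries whose counts were used and under 50 counts in 10 of them. In dog 036 GZMA went from 0 counts, which allows up to 0.238 CPM, to 15 counts or 3.47 CPM in the shallowest library. As counted, that was 14.6-fold the limit, and the error of the 15 counts is not covered.

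CD226 covered the widest range of the 3 genes, from 0.490 to 75.3 FPKM. At the initial timepoint it was 0.490 in dog 003, 2.51 in dog 027, 49.6 in dog 029, 4.39 in dog 030, 1.10 in dog 033, 5.99 in dog 034 and 3.94 in dog 037 among the B-Cell dogs. At 6 weeks these dogs had 5.74, 2.61, 62.8, 3.29, 0.871, 45.8 and 3.67 FPKM. Dog 029 was high on both occasions, dogs 003 and 034 were 11.7-fold and 7.65-fold higher at 6 weeks, and the log2 changes of the other 4 B-Cell dogs lay between -0.33 and 0.04.

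The T-Cell dogs had CD226 levels of 34.2 (dog 028), 75.3 (dog 036) and 4.16 FPKM (dog 038) initially and of 28.5, 31.5 and 14.1 FPKM at 6 weeks. Dog 036 was the 1 dog of 15 in which GZMK was higher and CD226 lower at 6 weeks, with a log2 change of -1.23 for CD226. The Unknown dogs had 2.42 (024), 1.71 (025), 0.901 (026), 0.860 (031_032) and 2.47 FPKM (035) initially, and 1.91, 44.6, 3.58, 4.91 and 3.11 FPKM at 6 weeks. All 5 Unknown dogs were low before treatment, and dog 025 then stood far above the rest at 26.0-fold its initial level.

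**Figure D1:**
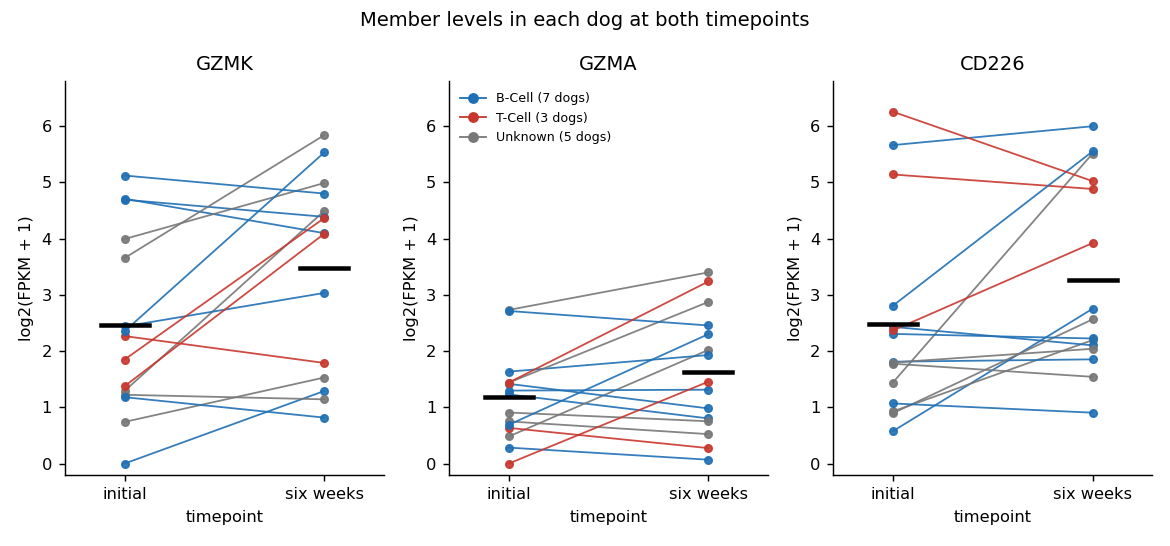
Levels of GZMK, GZMA and CD226 in each dog, as log2(FPKM + 1), at the initial timepoint and at 6 weeks; each line joins the pair of libraries of 1 dog, colours give the immunophenotype label, and the black bars are means over 15 dogs. The mean of GZMK lay at 2.46 initially and at 3.48 at 6 weeks, and the lines of single dogs ran in both directions for all 3 genes.

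The first comparison asked whether the genes differed between the timepoints over all 15 dogs, with limma on log2(FPKM + 1) and the dog as a block. GZMK had a mean change of 1.02 ± 0.33 on the log2 scale (SE, n = 15 dogs; 95% confidence interval 0.33 to 1.71) and was higher in 9 of 15 dogs. CD226 had a mean change of 0.79 ± 0.33 (interval 0.09 to 1.48) and was likewise higher in 9 of 15 dogs. GZMA had a mean change of 0.45 ± 0.21 (interval 0.01 to 0.89) and was higher in 8 of 15 dogs.

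None of the 3 genes passed limma's test over all genes, with Benjamini-Hochberg adjusted p-values of 0.303 for GZMK, 0.344 for CD226 and 0.384 for GZMA. No gene at all passed, 0 of 14257 (0.00%), although 1823 genes (12.8%) had an unadjusted p below 0.05, 1091 of them (7.65%) with a higher level at 6 weeks. All 3 members were among those 1091 genes. Taken as single genes, an exact two-sided permutation of the signs of the 15 changes gave p = 0.0157 for GZMK, 0.0486 for CD226 and 0.0628 for GZMA, where the smallest p possible was 6.1e-05. The spread between dogs was wide, with an SD of the change of 1.41 for GZMK, 1.42 for CD226 and 0.87 for GZMA. In bulk RNA, fewer cells of a type and less RNA per cell cannot be told apart, which holds for each change given here.

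**Figure D2:**
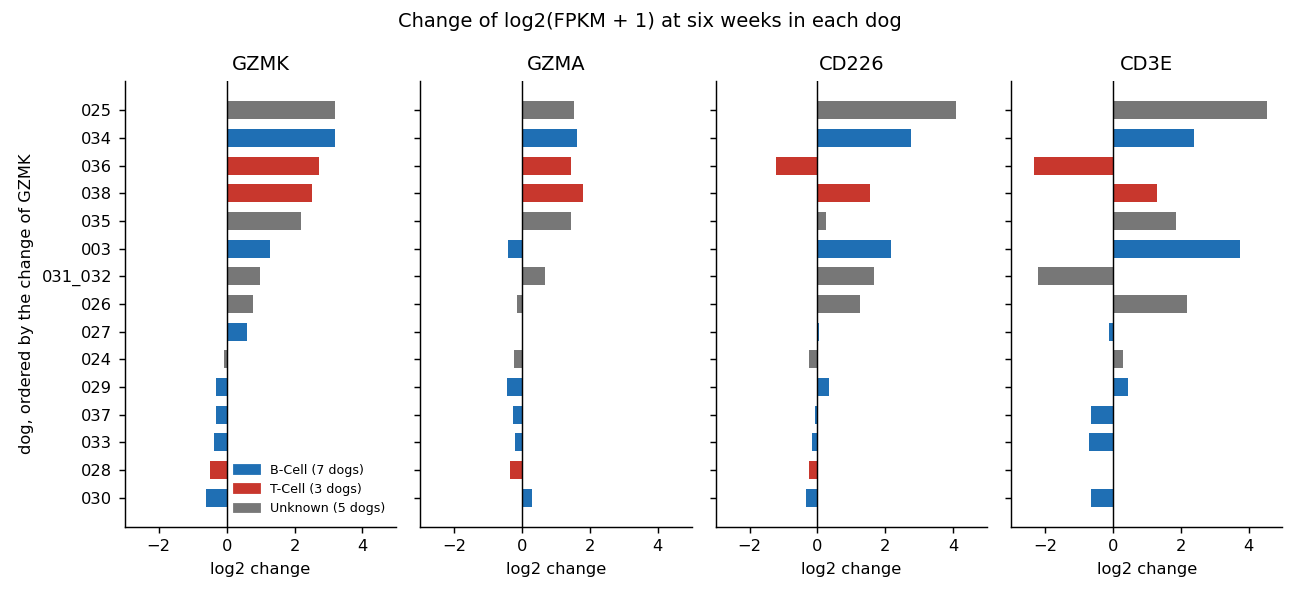
Change of log2(FPKM + 1) from the initial timepoint to 6 weeks in each of 15 dogs for GZMK, GZMA, CD226 and the T cell gene CD3E; bars are coloured by immunophenotype label, and dogs are ordered by the change of GZMK. The 5 dogs with the largest GZMK bars (025, 034, 036, 038 and 035) also had the largest GZMA bars, while CD226 and CD3E were lower in dog 036.

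The counts of 9 dogs (003, 025, 026, 031_032, 033, 034, 036, 037 and 038) gave larger changes. With edgeR's quasi-likelihood test and the dog as a block, GZMK changed by 1.93 ± 0.60 on the log2 scale (SE, adjusted p = 0.0971), CD226 by 1.53 ± 0.58 (adjusted p = 0.119) and GZMA by 0.84 ± 0.64 (adjusted p = 0.354). No gene passed that edgeR test either, 0 of 11690 (0.00%), with 3700 genes whose unadjusted p was below 0.05. With DESeq2 on the same counts, GZMK rose by 2.26 ± 0.53 (adjusted p = 0.00169) and CD226 rose by 1.76 ± 0.49 (adjusted p = 0.00811), and GZMA had 1.08 ± 0.58 (adjusted p = 0.177). DESeq2 called 1133 of 11510 genes (9.84%), 617 of them higher (5.36%), so the call of GZMK and CD226 depended on the tool. DESeq2 exceeded its false discovery threshold when tested on simulated data of this design, which bears on each of its calls given here. Those counts were drawn from edgeR's own fitted means and dispersions, so they cannot rank DESeq2 against edgeR. The median log2 change over all genes was -0.29 with edgeR's scaling and -0.07 with DESeq2's, and the members lay above it with both.

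The FPKM values of those 9 dogs gave a mean change of 1.55 ± 0.40 for GZMK, 1.33 ± 0.46 for CD226 and 0.67 ± 0.29 for GZMA (SE, limma). In the other 6 dogs the mean changes were 0.22 ± 0.34, -0.03 ± 0.11 and 0.12 ± 0.24. GZMK was higher at 6 weeks in 7 of the 9 dogs and in 2 of the 6 dogs, and CD226 in 6 of 9 and 3 of 6. The sets were formed here from how the deposited counts rank genes and not from a label. The study also divided its dogs by their expression profiles, into groups of these same sizes. Its groups also held the same numbers of B-cell, T-cell and unknown dogs as the sets here. Which dogs fell into which group is not in the labels. The difference between the sets was not tested. Dog 036 had the shallowest library, and without it DESeq2 gave 2.04 for GZMK (adjusted p = 0.00785) and 2.08 for CD226 (adjusted p = 0.000959) on the remaining 8 dogs.

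T-Cell and B-Cell dogs were then compared at each timepoint. At the initial timepoint CD226 was higher in the T-Cell dogs by 2.21 ± 0.89 on the log2 scale (SE; 3 against 7 dogs; interval 0.31 to 4.10), which did not pass limma's test over all genes (adjusted p = 0.172). The exact two-sided permutation of the labels gave p = 0.133 for CD226, with 0.0167 as the smallest p possible. The groups overlapped, since dog 038 at 4.16 FPKM lay among the B-Cell dogs and dog 029 at 49.6 FPKM lay among the T-Cell dogs.

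These were the dogs singled out above for their T cell and B cell scores. Without them the initial CD226 difference was 3.86 (limma adjusted p = 0.000259). That left 34.2 and 75.3 FPKM in 2 T-Cell dogs against 0.490 to 5.99 FPKM in 6 B-Cell dogs. Without dog 038 alone it was 3.32 (adjusted p = 0.0237). The number of genes that passed moved with the same dogs, from 49 of 14257 (0.344%) with all dogs to 3446 without both (24.2%) and 2296 without dog 038 (16.1%). It was 1 without dog 028 or without dog 036.

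For the granzymes the difference between T-Cell and B-Cell dogs had the other sign and did not pass. It was -1.10 ± 1.02 for GZMK (limma adjusted p = 0.543, exact permutation p = 0.383) and -0.63 ± 0.52 for GZMA (adjusted p = 0.483, exact permutation p = 0.25). The T-Cell dogs lay within the range of the B-Cell dogs for GZMK, whose B-Cell values spanned 0 to 33.8 FPKM. The intervals of the differences, -3.27 to 1.07 for GZMK and -1.73 to 0.46 for GZMA, were wide. Without dogs 029 and 038 the differences were -0.81 and -0.99, and that of GZMA was -0.29 without dog 036 and -1.01 without dog 038.

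At 6 weeks the differences between T-Cell and B-Cell dogs were -0.01 ± 1.13 for GZMK, 0.25 ± 0.71 for GZMA and 1.55 ± 1.01 for CD226, none of which passed (limma adjusted p = 0.998, 0.915 and 0.642). The exact permutation gave p = 0.983, 0.733 and 0.183. Without dogs 029 and 038 they were -0.32, -0.61 and 2.39, and again none passed (adjusted p = 0.942, 0.784 and 0.395). Without dog 028 they were 0.80, 0.94 and 1.42, and without dog 038 alone -0.48, -0.54 and 1.90. The limma test called 0 of 14257 genes (0.00%), with 1245 whose unadjusted p was below 0.05. For GZMK the interval reached from -2.40 to 2.38, so with 3 against 7 dogs sizeable differences in either direction remained compatible with the data.

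The change at 6 weeks was also fitted for each label in 1 model with a shared spread. In the 7 B-Cell dogs it was 0.49 ± 0.47 for GZMK, 0.08 ± 0.30 for GZMA and 0.67 ± 0.48 for CD226, and 3 of 7 dogs were higher for each granzyme. In the 5 Unknown dogs the changes were 1.42 ± 0.56, 0.65 ± 0.35 and 1.40 ± 0.57, with GZMK and CD226 higher in 4 of 5 dogs. Dog 025 carried much of this, and without it they were 0.97, 0.43 and 0.74. In the 3 T-Cell dogs they were 1.58 ± 0.72, 0.96 ± 0.46 and 0.02 ± 0.73, and without dog 038 they were 1.12, 0.55 and -0.75. In the B-Cell dogs without dog 029 they were 0.63, 0.17 and 0.73. In limma's tests the adjusted p-values of the 9 changes with all dogs lay between 0.235 and 0.993, and no gene passed in any of the labels (0.00% of 14257 each, with 548, 650 and 2862 genes whose unadjusted p was below 0.05 in B-Cell, Unknown and T-Cell dogs).

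Within the T-Cell dogs the granzymes separated dog 028 from dogs 036 and 038. Without dog 028 the change was 2.61 for GZMK (adjusted p = 0.0477) and 1.63 for GZMA (adjusted p = 0.0483), at which 1491 genes passed (10.5%) against 0 with it. Dogs 036 and 038 were also those whose marker genes moved most: in dog 036 PAX5 went from 0.291 to 12.7 FPKM and CD3E from 328 to 64.7 FPKM, and in dog 038 PAX5 went from 62.8 to 13.3 FPKM and CD3E from 14.6 to 37.9 FPKM. In dog 028 CD3E was 188 FPKM on both occasions. The part of these shifts in the granzyme values was not tested.

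The difference between the changes of T-Cell and B-Cell dogs was tested directly. It was 1.09 ± 0.86 for GZMK, 0.88 ± 0.55 for GZMA and -0.65 ± 0.87 for CD226, with limma adjusted p-values of 0.534, 0.425 and 0.720. Without dogs 029 and 038 it was 0.49, 0.38 and -1.48. Without dog 028 it was 2.12, 1.54 and -0.51, without dog 036 it was 0.52, 0.64 and -0.027, and without dog 038 it was 0.62, 0.46 and -1.42, none of which passed. No difference between the labels in the change of any member was therefore shown, and 0 of 14257 genes passed (0.00%), with 2187 whose unadjusted p was below 0.05.

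**Figure D3:**
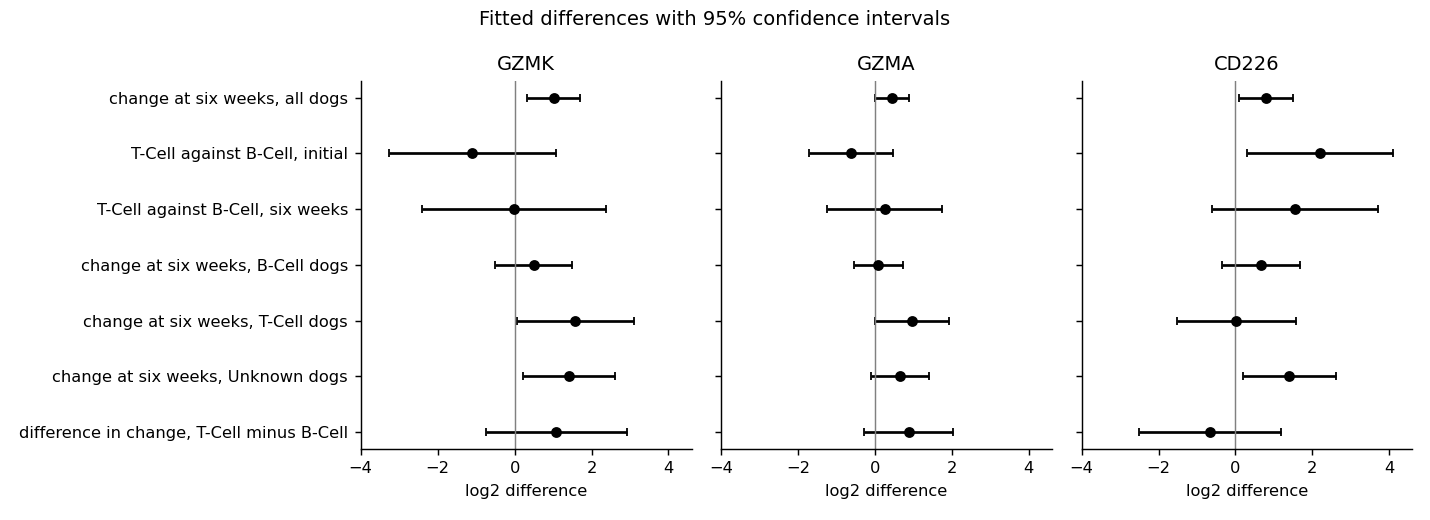
Fitted log2 differences on the log2(FPKM + 1) scale with 95% confidence intervals for GZMK, GZMA and CD226 in 7 comparisons; positive values mean higher at 6 weeks, higher in T-Cell dogs or a larger change in T-Cell dogs. The intervals of the label comparisons are wider than those of the change over 15 dogs, and the initial T-Cell against B-Cell difference of CD226 reaches from 0.31 to 4.10.

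Across libraries CD226 followed CD3E more closely than the granzymes did. Over the 30 libraries, which are 15 pairs and so not independent, Spearman's rho with CD3E was 0.83 for CD226, 0.35 for GZMK and 0.03 for GZMA. With the B cell gene CD22 it was -0.62 for CD226, -0.24 for GZMK and 0.10 for GZMA. Within the timepoints, the rho of CD226 to CD3E was 0.71 over 15 initial libraries and 0.93 over 15 6-week libraries. The likeness to CD3D, the other gene of the receptor complex, was weaker for CD226, at 0.49 over 30 libraries, 0.30 over the initial and 0.62 over the 6-week libraries. It was negative for GZMK (-0.18) and GZMA (-0.46) over 30 libraries. These are descriptions only, since all genes of a library share its depth and scaling.

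CD226 was above 20 FPKM in 8 libraries, a limit placed after its values were seen in the gap between 14.1 and 28.5 FPKM. CD3E lay between 64.7 and 328 FPKM in these 8 libraries and between 1.56 and 69.4 FPKM in the other 22. The initial library of dog 031_032 was the exception, with 69.4 FPKM of CD3E and 0.860 FPKM of CD226. GZMK ranged from 1.59 to 45.2 FPKM in the 8 libraries high in CD226 and from 0 to 56.2 FPKM in the others.

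**Figure D4:**
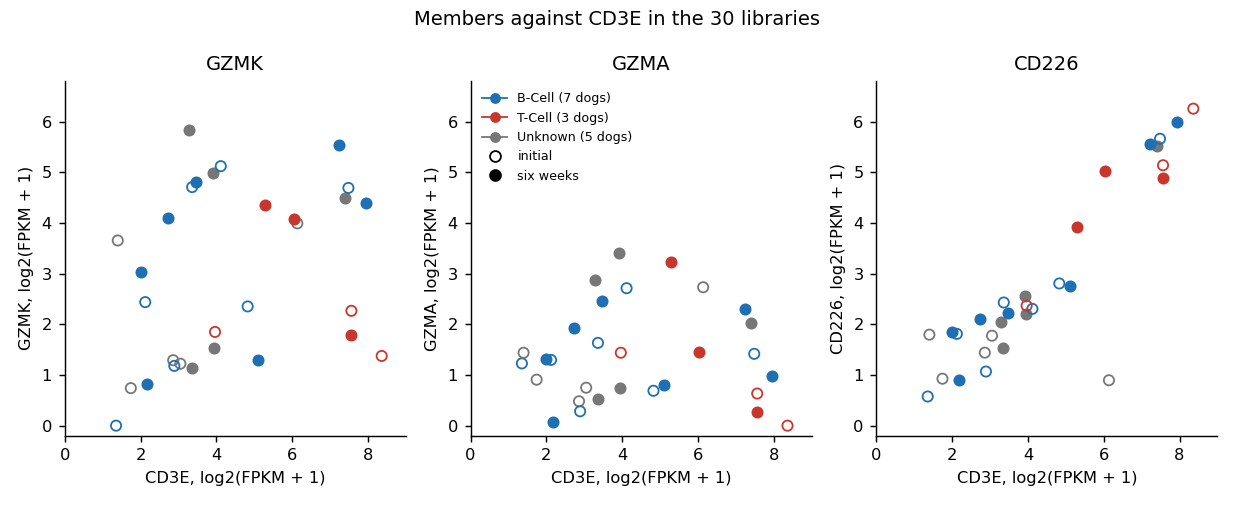
GZMK, GZMA and CD226 against the T cell gene CD3E in the 30 libraries, all as log2(FPKM + 1); open circles are initial and filled circles 6-week libraries, coloured by immunophenotype label. CD226 climbs with CD3E (rho 0.83) apart from 1 initial library of an Unknown dog, whereas GZMK and GZMA are scattered (rho 0.35 and 0.03), and the T-Cell dog with the highest CD3E has GZMA at 0.

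With the T cell score of each library as a covariate, the mean change over 15 dogs was 0.81 ± 0.32 for GZMK, 0.38 ± 0.22 for GZMA and 0.41 ± 0.22 for CD226 (SE, limma). The estimate of CD226 was thus 0.41 with the covariate and 0.79 without, and that of GZMK 0.81 and 1.02. None passed (adjusted p = 0.489, 0.546 and 0.528). The score rests on CD3D and CD3E alone, which did not move together in all dogs: in dog 003 CD3E went from 1.56 to 33.4 FPKM and CD3D from 37.3 to 44.0 FPKM.

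The granzymes resembled each other, with a rho of 0.80 between GZMK and GZMA over 30 libraries (0.67 at the initial timepoint and 0.86 at 6 weeks, 15 libraries each). GZMK and CD226 had a rho of 0.50, and GZMA and CD226 of 0.12. All 3 members were higher at 6 weeks in 6 dogs and all 3 were lower in 4 dogs.

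Among 3918 other genes with a symbol, those closest in pattern to GZMK were CD160 (rho 0.88) and KLRD1 (0.87), both receptors of natural killer and cytotoxic T cells. KLRD1 (0.81) and the stress-response regulator NFE2L2 (0.80) were closest to GZMA. CD226 was closest to ICOS (0.95), a costimulatory receptor of activated T cells, and PLCL1 (0.95). Closest to the mean of the 3 members were CD160 (0.91), SRGAP3 (0.90), LGALS3 (0.89), TNFAIP3 (0.89), RUNX2 (0.88), RAB19 (0.87), OSBPL3 (0.87) and ZNF366 (0.87). The likeness is over 30 libraries of 15 dogs.

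Other genes of the cytotoxic programme were counted by list. They were measured in the same 15 dogs and are not independent of each other. Of all 14257 genes tested, 6931 had a positive change over 15 dogs, with a median of -0.01. These 14257 include gene IDs without a symbol, whereas each listed gene that was tested had a symbol. Of 11 killer cell receptors and adaptors with a gene ID (of 18 listed), 10 had a positive change, with a median of 0.59, and 0 passed limma's test. The same held for granule machinery (3 of 12 listed genes, 2 positive, median 0.57), transcriptional regulators (5 of 10, 4 of 4 tested positive, median 0.47) and effector cytokines and death ligands (4 of 9, 3 of 3 tested positive, median 0.22). The 2 partners of CD226 with a gene ID, TIGIT and CD96, had changes of 0.64 ± 0.20 and 0.33 ± 0.28.

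DESeq2 on the counts of 9 dogs called 8 of 10 killer cell genes higher and none lower, beside 5.36% of all genes called higher. It also called 2 of 3 members, 1 of 3 granule genes, 1 of 4 regulators and 0 of 3 cytokines and ligands, while edgeR called none in any list. The changes called by DESeq2 included TIGIT (1.88, adjusted p = 0.000125), KLRD1 (1.73, adjusted p = 0.0109) and CD160 (1.72, adjusted p = 0.0211), which were picked for naming after their values were seen.

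**Figure D5:**
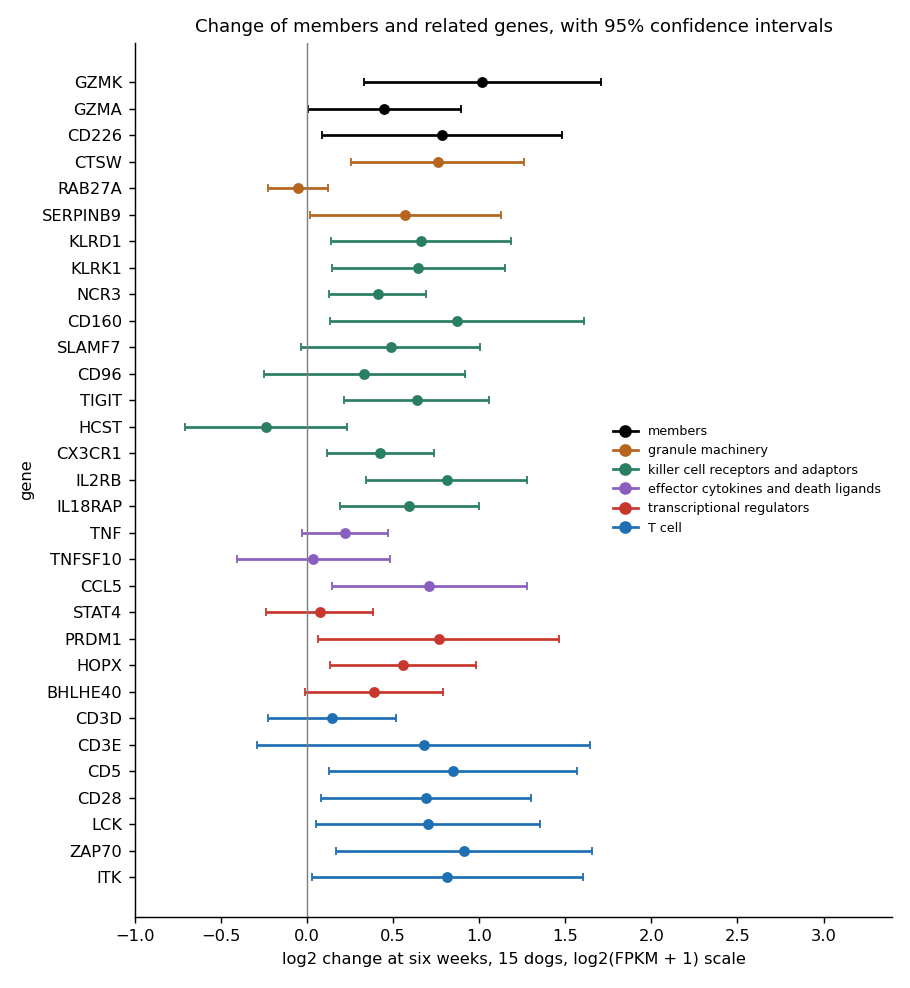
Log2 change at 6 weeks over 15 dogs, with 95% confidence intervals, for the 3 members and 28 related genes, coloured by list. GZMK had the highest estimate at 1.02, and 29 of the 31 estimates were above 0, beside 6931 of all 14257 genes tested. No gene passed limma's test over all genes.

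Markers of other cells had changes of their own, beside a positive change in 6931 of all 14257 genes tested. All 7 T cell genes with an ID (of 13) had positive changes over 15 dogs, with a median of 0.70, among them CD3E at 0.68 ± 0.46 (limma adjusted p = 0.545). Both macrophage genes (of 7 listed, median 0.72), both neutrophil genes (of 4, median 0.60), both plasma cell genes (of 4, median 0.27) and all 4 stromal genes (of 5, median 0.30) were positive as well. The 2 B cell genes (of 8, median -0.29) and all 5 proliferation genes (median -0.47) were negative. With DESeq2 on 9 dogs, 4 of 7 T cell genes, 1 of 2 macrophage genes, 2 of 2 neutrophil genes and 1 of 4 stromal genes rose, 3 of 5 proliferation genes fell, and neither B cell gene was called, beside 5.36% of all genes called higher and 4.48% called lower. No gene of these lists passed limma's test, and no erythroid gene had an ID among the symbols used here. The part of the cell makeup in the changes of GZMK, GZMA and CD226 was not tested.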

How the data were processed

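The authors aligned single 75-base reads of 30 RNA libraries with HISAT2 2.1.0 and quantified transcripts with StringTie 1.3.3 against CanFam3.1 with Ensembl release 104. The deposited FPKM values are scaled by transcript length and depth. The deposited counts per gene are unscaled whole numbers. Counts ranked genes like FPKM in 9 dogs (Spearman 0.880 to 0.983) and not in 6 (0.087 to 0.117), whose counts were not used.

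Changes and differences were tested with limma 3.58.1 (trend) in R 4.3.3 on log2(FPKM + 1), a scale that understates changes of low genes, for 14257 gene IDs with a mean FPKM above 1, with Benjamini-Hochberg adjustment and a threshold of 0.05. The dog was a block between timepoints. Counts of 9 dogs were tested with edgeR 4.0.16 for genes with a mean above 50. DESeq2 1.42.0 was fitted and adjusted over all genes with its own filter. Its genes with a mean above 50 were kept afterwards, without a new adjustment. The limma, edgeR and DESeq2 fits were tested on simulated data, in which DESeq2 made more false calls than its threshold allows. The simulated counts were a single draw from edgeR's fitted means and dispersions. Exact permutations used SciPy 1.17.1.

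Samples were paired by the number in the titles, which was taken to name the dog. Dog 031_032, whose titles differ, was paired by elimination. Deviations from the timepoint mean correlated between the libraries of a dog with a median of 0.60 (lowest -0.11, in dog 025; 0.34 in dog 031_032), and 9 of 15 dogs correlated best with their own partner. No libraries were identical.

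Members and gene lists were chosen with earlier results of these data known. All members with a gene ID were named, and from each list the genes that passed over all dogs (none did) and CD3E; genes of like pattern were the 8 with the highest Spearman rho to the mean of the members and the 2 with the highest to each. CD8A and CD4 had no ID among the symbols used here.

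Alternatives were another pseudocount, no filter, median-of-ratios scaling, no block, a T cell score as a covariate, and fits without single dogs.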

Additional observations from a re-analysis of the deposited data

Results flagged for a closer look

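In 18 sets of 4 to 10 dogs (levels at both timepoints and changes of the 3 members in B-Cell and Unknown dogs), 2 held a dog far from the others by Dixon's test, where chance gives about 1 in 20. The change of GZMA in dog 034 was 1.61 on the log2 scale, the highest of 7 B-Cell dogs, of which the next had 0.30. The level of CD226 in dog 025 at 6 weeks was 5.51 on the log2(FPKM + 1) scale, the highest of 5 Unknown dogs, and CD3E in that library was 168 FPKM. The part of the T cell content in both values was not tested.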

How the results depend on the processing

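GZMA and GZMK kept a positive change at 6 weeks under each alternative run, between 0.12 and 1.08 for GZMA and between 0.22 and 2.26 for GZMK. The lowest values came from the FPKM of 6 dogs and the highest from DESeq2 on the counts of 9 dogs. GZMK passed with DESeq2 on 9 dogs (2.26) and without dog 036 (2.04), as did CD226 (1.76 and 2.08). As single genes, GZMK (1.02) and CD226 (0.79) passed the exact permutation. CD226 reversed to -0.033 in the 6 dogs without usable counts, a set chosen after seeing the data, as was the DESeq2 fit without dog 036. Leaving out 1 dog at a time gave 0.86 to 1.14 for GZMK, 0.35 to 0.51 for GZMA and 0.55 to 0.93 for CD226, with none past the threshold and 0 genes past it. Without the replicate block the paired changes of 1.02, 0.45 and 0.79 stayed above an adjusted p of 0.05 (0.99973 each), and no member's call changed under it in any label. Genes past the threshold numbered 3054 over 15 dogs with no filter. They numbered 1133 with DESeq2 on 9 dogs and 1271 with DESeq2 on 8 dogs, without dog 036.

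For T-Cell against B-Cell dogs initially, 6 genes passed with no filter, 263 with median-of-ratios scaling, 1 without dog 036 and 3446 without dogs 029 and 038, and 1 to 2296 when 1 T-Cell dog was left out. CD226 was 3.86 without dogs 029 and 038 and 1.37 to 3.32 with 1 T-Cell dog left out. At 6 weeks 11 genes passed without dogs 029 and 038, and 0 to 5 with 1 T-Cell dog left out. GZMK reversed to 0.095 with a pseudocount of 0.1, to 0.11 with median-of-ratios scaling and ranged from -0.48 to 0.80 with 1 T-Cell dog left out. GZMA reversed to -0.61 without dogs 029 and 038 and ranged from -0.54 to 0.94.

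For the change in T-Cell dogs, 13 genes passed with a pseudocount of 0.1 and 0 to 1491 with 1 dog left out. GZMK ranged from 1.02 to 2.61, GZMA from 0.55 to 1.63 and CD226 from -0.75 to 0.65, the upper values of the granzymes being those without dog 028. CD226 reversed to -0.75 without dogs 029 and 038. For the difference between T-Cell and B-Cell dogs, 4 genes passed with a pseudocount of 0.1 and 0 to 612 with 1 T-Cell dog left out. The cause of these shifts was not tested. With 1 Unknown dog left out, the changes ranged from 0.97 to 1.79 for GZMK, 0.43 to 0.87 for GZMA and 0.74 to 1.81 for CD226. Low counts of GZMA and 3 T-Cell dogs limit what could be detected.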
